A study of Mus musculus with 12 samples.

Results

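The genes described here are mouse genes whose bodies, from the first to the last annotated base, cover at least 200 kb, in cultured neonatal mouse cardiomyocytes. They are 52 listed genes, such as Dmd, Ptprd, Sox5 and Tenm4, of which 51 were found among the 55416 genes of the table and tested among 21799. The remaining gene, Ptprg, was not analysed here because its identifier did not match. The list was drawn up after long genes had been seen to be lower with the knockdown in these same libraries, so the knockdown values of these genes below are a description. The 12 libraries form 4 groups of 3: phenylephrine (PE) for 24 hours with the lincRNA-p21 GapmeR (PE knockdown), PE with the negative-control GapmeR (PE control), PBS with the lincRNA-p21 GapmeR (PBS knockdown) and PBS with the negative-control GapmeR (PBS control). A GapmeR is an antisense oligonucleotide whose DNA core lets RNase H cut the matching RNA, and every group received such an oligonucleotide. Phenylephrine, an alpha-1 adrenergic agonist, makes cultured cardiomyocytes grow, and lincRNA-p21 is a long noncoding RNA induced by p53. The labels do not say whether libraries came from separate cultures or litters, and p-values therefore reflect the spread among these libraries alone, which may be technical.

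Long genes set a particular task for the cell. RNA polymerase II must stay on the template for hours, and most of what it copies is intron that is removed again. Premature cleavage and polyadenylation inside introns is normally held back by the U1 small nuclear ribonucleoprotein, and elongation is helped by kinases of the carboxy-terminal domain, by the PAF complex and by topoisomerases that release the twist ahead of the polymerase. In the heart, long genes include dystrophin, cofactors of cardiac development, adhesion receptors and signalling enzymes. Several of the listed genes also lie at common fragile sites, where very long transcription units meet late replication.

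Polyadenylated RNA was sequenced, and 21325485 to 22139681 reads per library fell in genes. Values below are the authors' normalised read counts, that is reads divided by a size factor for the library. The highest single markers were those of cardiomyocytes, led by Myh6 with a mean of 398432 and Tnnt2 with 108419. Not all were so high: Nkx2-5 (6358) and Pln (8354) were below the fibroblast markers Col1a1 (17593), Col3a1 (12515) and Postn (8931). The smooth muscle marker Acta2 (29387) was also above the cardiomyocyte marker Ryr2 (21562). No marker of fibroblasts, endothelial cells, leukocytes, smooth muscle and pericytes or Schwann cells was at 0. The target, Trp53cor1 (lincRNA-p21), had 8.56, 9.97 and 8.93 in PE knockdown libraries and 56.0, 34.0 and 34.7 in PE control libraries. It had 12.7, 22.6 and 10.1 in PBS knockdown libraries and 59.8, 70.6 and 63.2 in PBS control libraries, and both pairs of groups were apart. The log2 change was -2.03 ± 0.30 in PE (limma adjusted p = 9.24e-05) and -2.10 ± 0.30 in PBS (limma adjusted p = 0.000201). PBS knockdown replicate 2 deviated most from its group, with a median absolute log2 deviation of 0.172. PBS knockdown replicate 1 (0.121), PE knockdown replicate 1 (0.116) and PBS control replicate 2 (0.105) followed, against 0.0537 to 0.0880 in the other 8 libraries. Mitochondrial genes took 6.55% to 10.04% of reads in PE knockdown libraries and 6.36% to 9.28% in PE control libraries, and 4.33% to 7.55% in PBS knockdown libraries against 8.19% to 10.7% in PBS control libraries, without overlap in PBS.

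In GRCm38, the build of all gene coordinates given here, the 51 genes lie on 20 chromosomes, 25 of them on the plus strand. Their genomic spans run from 266 kb (Ghr) to 2271 kb (Ptprd), with a median of 597 kb, and 11 genes exceed 1000 kb. Annotated exons make up a median of 2.04% of the gene body, from 0.0925% in Fhit to 7.92%. The longest annotated transcript has a median of 19 exons, from 4 in Fbxl7 to 79 in Dmd, and its longest intron has a median length of 142 kb. In 566 other protein-coding genes of 200 kb or more whose mean value reached 50, the median span was 283 kb, and in 11038 genes under 200 kb it was 23.9 kb with 19.7% exon. The mature transcripts are less unusual than the genes: the longest transcript has a median length of 7.21 kb in the listed genes, against 6.02 kb in the other long genes and 3.47 kb in the genes under 200 kb.

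Transcription of the listed genes begins at promoters of several kinds, and 4 are shown because they open genes from the opposite ends of the knockdown range. Ralgapa2 and Maml3 were the lowest, and Fndc3b and Rora the highest with the knockdown in PE, among 17 listed genes that have 1 RefSeq start within 1 kb of the GENCODE start. Each run is 300 bases of GRCm38.p6 from RefSeq, 250 before the start and 50 after it, read on the gene's strand, with GC boxes (GGGCGG or CCGCCC) in capitals.
Ralgapa2 (chr2:146511955-146512254, minus strand): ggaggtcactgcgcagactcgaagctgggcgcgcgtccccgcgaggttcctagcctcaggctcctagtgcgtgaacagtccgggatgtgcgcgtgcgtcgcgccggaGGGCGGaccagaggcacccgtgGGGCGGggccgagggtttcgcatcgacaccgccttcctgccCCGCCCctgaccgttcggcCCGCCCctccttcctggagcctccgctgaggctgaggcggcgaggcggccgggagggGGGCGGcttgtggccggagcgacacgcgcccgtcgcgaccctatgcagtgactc
Maml3 (chr3:52104957-52105256, minus strand): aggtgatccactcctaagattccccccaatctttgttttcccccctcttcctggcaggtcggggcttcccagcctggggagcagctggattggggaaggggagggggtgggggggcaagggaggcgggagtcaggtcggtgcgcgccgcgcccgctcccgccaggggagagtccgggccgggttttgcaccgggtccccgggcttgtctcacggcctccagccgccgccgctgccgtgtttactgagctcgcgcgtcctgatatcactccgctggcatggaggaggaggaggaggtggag
Fndc3b (chr3:27710403-27710702, minus strand): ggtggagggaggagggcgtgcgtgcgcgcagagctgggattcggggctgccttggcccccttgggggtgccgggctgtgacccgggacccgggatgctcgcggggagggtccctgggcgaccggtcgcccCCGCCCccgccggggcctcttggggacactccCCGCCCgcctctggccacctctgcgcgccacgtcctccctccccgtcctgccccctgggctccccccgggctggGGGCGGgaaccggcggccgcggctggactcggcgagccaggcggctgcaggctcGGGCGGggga
Rora (chr9:68653536-68653835, plus strand): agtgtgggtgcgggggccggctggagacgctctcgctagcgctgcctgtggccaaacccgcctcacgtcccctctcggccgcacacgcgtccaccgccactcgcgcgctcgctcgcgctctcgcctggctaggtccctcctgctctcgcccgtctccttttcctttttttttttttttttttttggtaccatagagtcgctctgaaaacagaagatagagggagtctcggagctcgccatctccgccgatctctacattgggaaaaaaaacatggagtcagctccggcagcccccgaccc
The Ralgapa2 window holds 5 GC boxes and 39 CpG, the Maml3 window 0 and 22, the Fndc3b window 4 and 33, and the Rora window 0 and 28. Each pair therefore has a window with GC boxes and a window without them. Windows were found for 41 of the 51 genes, 68 windows in all, and 45.6% of them hold a GC box, against 52.7% of the windows of other long genes, 64.6% of those of genes under 200 kb and 35.7% of all windows. CCAAT (or ATTGG on the other strand) is in 42.6% of the listed genes' windows and in 37.4% of all windows, and TATAAA (or TTTATA) in 10.3% and 13.6%. A ratio of observed to expected CpG of at least 0.6 was found in 47.1% of the listed genes' windows, 55.5% of those of other long genes and 71.4% of those of genes under 200 kb. These matches describe letters in the windows only.

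With the lincRNA-p21 GapmeR, the listed genes as a group were lower than with the negative-control GapmeR under both treatments. In PE the median log2 change was -0.86, or 55.0% of the PE control level, and all 51 values were below 0. In PBS it was -0.64, or 64.3% of the PBS control level, with 50 values below 0 and only Auts2 above. Over all genes tested the medians were 0.01 and 0.00. In bulk RNA, fewer cells of a type and less RNA per cell cannot be told apart.

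Library values separated the groups for most of the genes. In PE, 45 of 51 genes had every knockdown library below every control library, where 16.1% of all genes tested did. In PBS, 38 did, where 11.9% of all genes did. The choice of the list fixed these directions, so the counts are a description. The 6 genes with overlapping groups in PE were Foxp1, Rora, Auts2, Fhit, Macrod2 and Naaladl2, and 13 overlapped in PBS. At least a 2-fold lower level was found for 21 genes in PE and 11 in PBS, and a change under 1.2-fold for 4 and 12.

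**Figure D1:**
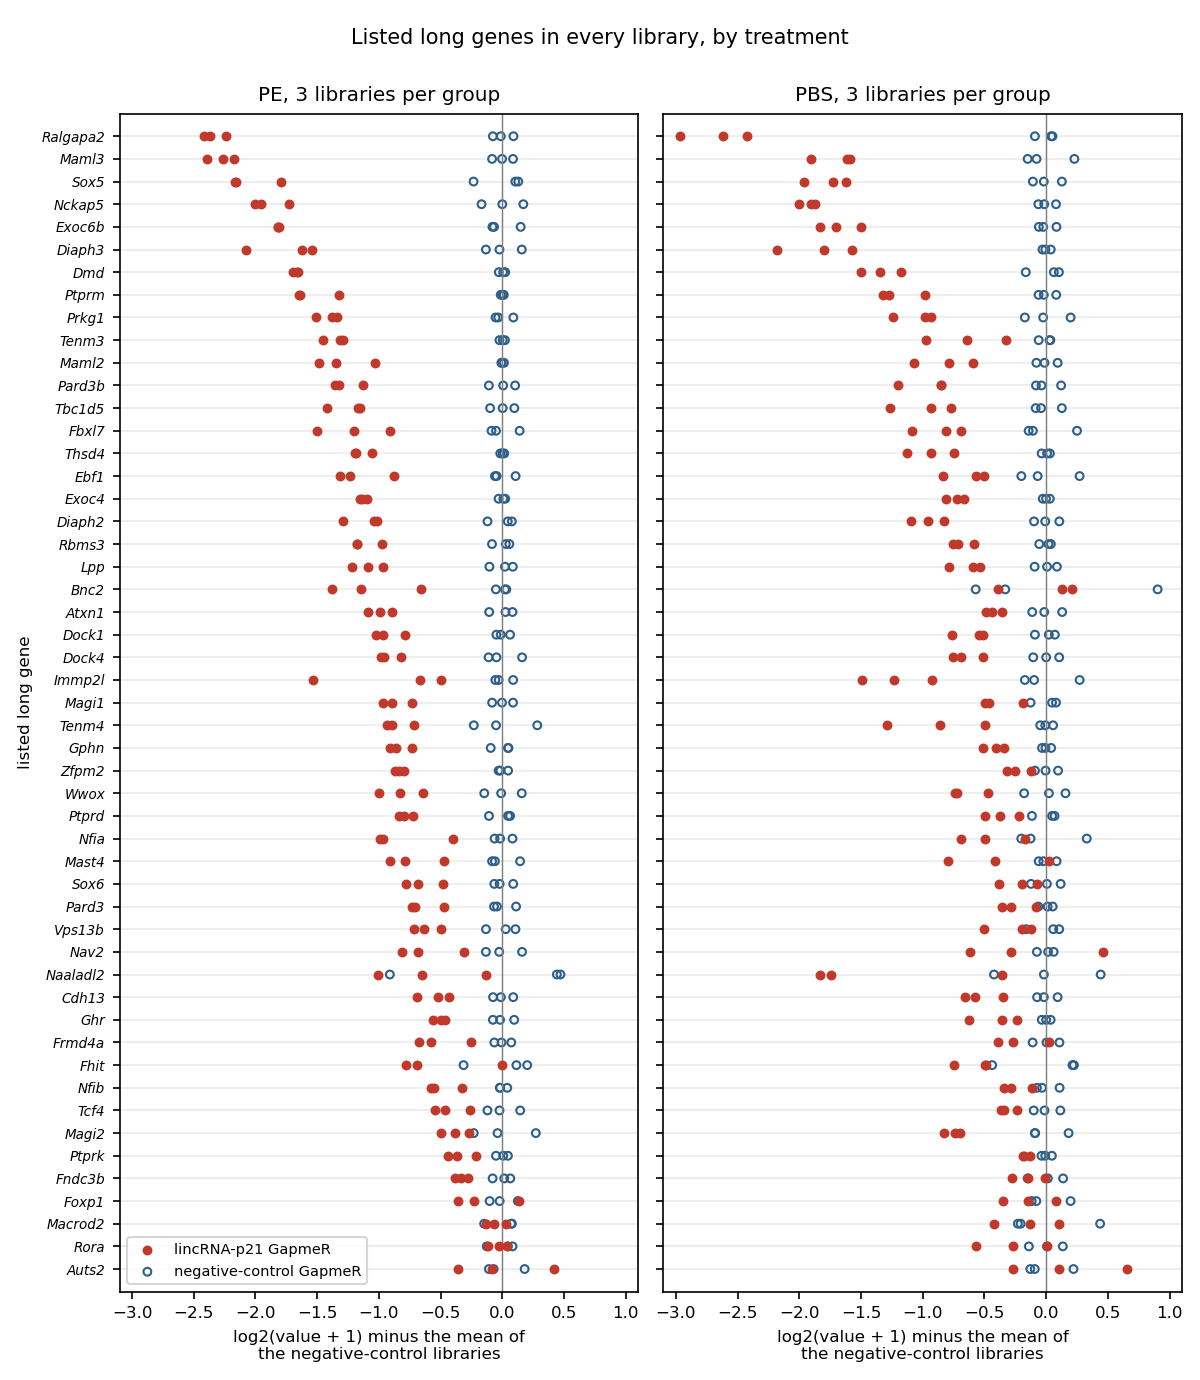
Each row is a listed gene, and each point a library: log2(value + 1) minus the mean of the 3 negative-control libraries of the same treatment, for PE (left) and PBS (right). Filled points are lincRNA-p21 GapmeR libraries and open points negative-control libraries, 3 each. In PE, 45 of 51 rows have all filled points left of all open points, and in PBS 38.

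Every knockdown library showed the lower level. The 51 genes together took 0.199% to 0.220% of the signal in PE knockdown libraries and 0.328% to 0.332% in PE control libraries. In PBS they took 0.237% to 0.281% in knockdown libraries and 0.340% to 0.351% in control libraries. Neither pair of ranges overlapped. The median of the genes against the control mean lay between -0.98 and -0.73 in the PE knockdown libraries and between -0.72 and -0.50 in the PBS knockdown libraries, while genes under 30 kb had medians of 0.04 to 0.08 and 0.06 to 0.11 in the same libraries. Leaving out PE knockdown replicate 1, PBS knockdown replicate 2 and PBS control replicate 2 together gave medians of -0.93 in PE and -0.62 in PBS. PBS knockdown replicate 1 was kept there, though its deviation of 0.121 was above that of PE knockdown replicate 1 (0.116) and PBS control replicate 2 (0.105). Without PBS knockdown replicate 1 alone the PBS median was -0.54.

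**Figure D2:**
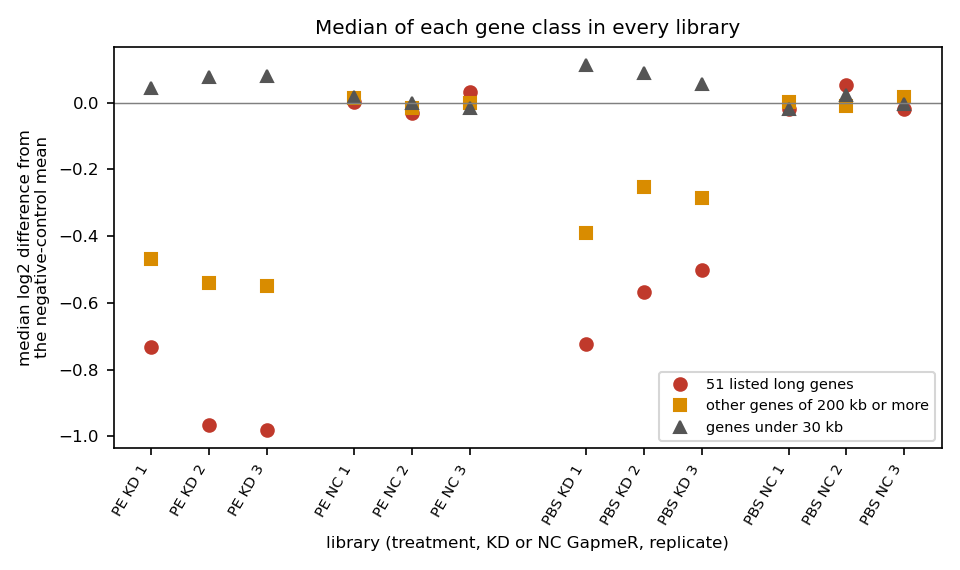
Median log2 difference from the mean of the negative-control libraries of the same treatment, for each of the 12 libraries (KD, lincRNA-p21 GapmeR; NC, negative-control GapmeR). Circles are the 51 listed long genes, squares 566 other genes of 200 kb or more and triangles genes under 30 kb; the listed genes lie between -0.98 and -0.50 in the 6 knockdown libraries and between -0.03 and 0.05 in the 6 control libraries.

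The summed levels of cell type markers also differed with the knockdown. The summed cardiomyocyte markers were 635411 to 755179 in PE knockdown libraries and 798253 to 1087830 in PE control libraries, and 468654 to 515285 in PBS knockdown libraries against 576498 to 675882 in PBS control libraries. Both were lower without overlap, and Myh6 was the largest part of these sums. Of the 8 markers, 8 were below 0 in PE and 7 in PBS, where 48.6% and 49.9% of all genes were. Their median log2 changes were -0.29 and -0.28. Called lower were 1 in PE and 0 in PBS, where 7.14% and 3.21% of all genes were. The 6 smooth muscle and pericyte markers summed to 34767 to 38025 in PE knockdown libraries and 47936 to 50394 in PE control libraries, and to 18485 to 20669 in PBS knockdown libraries and 22228 to 26347 in PBS control libraries. Acta2 was the largest part of these sums. Of the 6 markers, 5 were below 0 in PE and 4 in PBS, with 2 and 0 called lower, beside the shares of all genes just given. The sums of the 4 Schwann cell markers were also lower without overlap under both treatments, those of the 8 fibroblast markers in PE only and of the 7 endothelial markers in PBS only, and the 7 leukocyte markers overlapped in both. Median log2 changes of the marker lists ran from -0.47 (Schwann cell) to 0.04 (leukocyte) in PE and from -0.33 (Schwann cell) to -0.10 (smooth muscle and pericyte) in PBS. The part of cell composition in the values of the long genes was not tested.

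Of the 14 nuclear regulators, 11 were lower without overlap in PE and 8 in PBS, with medians of -0.81 and -0.30. Maml3 (chr3:51685907-52105076, minus strand), a Mastermind coactivator of Notch signalling, had 65.3, 69.8 and 59.6 in PE knockdown libraries and 337, 299.7 and 317 in PE control libraries. It had 90.7, 113 and 111 in PBS knockdown libraries and 308, 324 and 401 in PBS control libraries. The knockdown groups were far below their controls, with log2 changes of -2.28 ± 0.14 in PE and -1.70 ± 0.14 in PBS (limma standard error, here and below). Sox5 (chr6:143828425-144781977, minus strand), a SoxD factor known from cartilage formation, had 31.0, 23.9 and 23.8 in PE knockdown and 118, 93.5 and 120.5 in PE control libraries. In PBS it had 56.2, 44.3 and 52.3 in knockdown and 173, 191 and 162 in control libraries. Its groups were apart under both treatments (log2 changes of -2.04 ± 0.18 and -1.77 ± 0.18), and its partner in cartilage, Sox6, was -0.65 ± 0.12 in PE and -0.22 ± 0.12 in PBS, where its groups overlapped.

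Auts2 (chr5:131437333-132543344, minus strand), a nuclear regulator known from neural development, is the counterexample of this class. It had 1242, 876 and 725 in PE knockdown libraries and 1052, 884 and 861 in PE control libraries, and 899, 1701 and 1159.7 in PBS knockdown against 1014, 1261 and 989 in PBS control libraries. Values overlapped under both treatments, with log2 changes of -0.01 ± 0.19 and 0.16 ± 0.19, and its direction turned with single libraries: it was 0.17 in PE without PE knockdown replicate 3, 0.03 without PE knockdown replicate 2 and 0.08 without PE control replicate 1, and -0.08 in PBS without PBS knockdown replicate 2. Rora, a nuclear receptor, was close to its control in PE (-0.04 ± 0.14), as was Foxp1, a forkhead repressor that acts in heart development (-0.15 ± 0.13). Zfpm2, the GATA4 cofactor FOG2 needed for heart development, was -0.83 ± 0.09 in PE and -0.23 ± 0.09 in PBS. The remaining regulators, namely Maml2, Tcf4 (an E protein), Nfia and Nfib (nuclear factor I), Ebf1, Bnc2 and Atxn1 (a partner of the repressor Capicua), lay between -1.29 (Maml2) and -0.42 (Tcf4) in PE.

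All 7 surface receptors and adhesion molecules measured were lower without overlap under both treatments, with medians of -0.79 in PE and -0.53 in PBS. Ptprm (chr17:66666947-67354457, minus strand), a receptor tyrosine phosphatase that binds itself across cell contacts, had 384, 306 and 309 in PE knockdown libraries and 964, 954 and 970.4 in PE control libraries. In PBS its values were 414, 526 and 430.0 with the knockdown and 995, 1099 and 1025 in controls, so that log2 changes were -1.54 ± 0.11 and -1.19 ± 0.11. Its close relative Ptprk (chr10:28074820-28597397, plus strand) had 2547, 2176 and 2292 in PE knockdown and 3049, 2851 and 2969.9 in PE control libraries. The gap was small though free of overlap, with log2 changes of -0.34 ± 0.09 in PE and -0.17 ± 0.09 in PBS, so 2 phosphatases of similar kind and span (688 and 523 kb) stood at opposite ends of this class. Tenm3 (chr8:48227682-48843951, minus strand), a teneurin that guides cell-cell recognition, had 174, 177 and 159 in PE knockdown libraries against 437, 429 and 443 in PE controls. With PBS it had 433, 679.7 and 545 in knockdown and 866, 815 and 870.2 in control libraries, and the log2 changes were -1.35 ± 0.13 and -0.64 ± 0.13. Ptprd, the longest gene of the list, was -0.79 ± 0.10 in PE, Cdh13 (T-cadherin, a receptor for adiponectin) -0.55 ± 0.10 and Ghr (the growth hormone receptor) -0.51 ± 0.10.

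Among the 12 genes of the cytoskeleton, cell polarity and scaffolds, all were lower without overlap in PE and 10 in PBS (medians -0.98 and -0.70). Nckap5 (chr1:125913620-126830799, minus strand), a protein that binds the adaptor Nck, had 27.8, 33.9 and 28.8 in PE knockdown libraries and 129, 115 and 102 in PE control libraries. It had 73.4, 75.02 and 68.8 in PBS knockdown and 266, 293 and 275 in PBS control libraries. Its level with the knockdown was 26.8% of control in PE and 26.3% in PBS, with log2 changes of -1.90 ± 0.16 and -1.93 ± 0.16. Diaph3 (chr14:86655367-87141235, minus strand), a formin that nucleates actin filaments, had 185, 175 and 128 in PE knockdown against 533, 494 and 605 in PE control libraries. In PBS it had 181, 139 and 213 with the knockdown and 631, 621 and 650.3 in controls. These groups were well apart (log2 changes of -1.75 ± 0.16 and -1.85 ± 0.16), and the formin Diaph2 was -1.12 ± 0.11 in PE.

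Dmd, which encodes dystrophin, the link between actin and the sarcolemma of muscle cells, had a log2 change of -1.67 ± 0.10 in PE and -1.34 ± 0.10 in PBS, and spans 2257 kb with 79 exons. Magi2 (chr5:19227036-20704792, plus strand), a scaffold of cell junctions, was the least changed of this class in PE. It had 105, 96.7 and 89.3 in PE knockdown and 108, 123 and 153 in PE control libraries, which lay close together without overlap. In PBS it had 96.1, 87.7 and 93.5 in knockdown and 147, 178 and 147 in control libraries, and the change was larger there (-0.39 ± 0.16 in PE and -0.76 ± 0.16 in PBS). Pard3b and Pard3, polarity proteins, were -1.27 and -0.64 in PE. The other members were Lpp (a zyxin relative of focal adhesions, -1.09), Magi1 (-0.86), Gphn (gephyrin, -0.83), Nav2 (a neuron navigator, -0.60) and Frmd4a (a FERM-domain scaffold, -0.50), all as log2 changes in PE.

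The 5 genes of small GTPase control and kinases were all lower without overlap in PE, and 4 were in PBS, with medians of -0.93 and -0.65. Ralgapa2 (chr2:146239879-146512344, minus strand), the catalytic subunit of a GTPase-activating complex for Ral, was the lowest gene of the list. It had 226, 234 and 255 in PE knockdown libraries and 1148, 1289 and 1201 in PE control libraries. In PBS it had 169, 247 and 215 with the knockdown and 1362, 1243 and 1372 in controls. Of the control level, 19.7% was left in PE and 15.7% in PBS, with log2 changes of -2.34 ± 0.12 and -2.67 ± 0.12, although at 272 kb it is the second shortest gene of the list. Prkg1 (chr19:30564489-31765033, minus strand), the cGMP-dependent kinase that acts downstream of nitric oxide and natriuretic peptides, had 182, 161 and 177 in PE knockdown and 445, 452 and 492 in PE control libraries. With PBS it had 325, 262 and 314 in knockdown and 712, 550.1 and 609.7 in control libraries (log2 changes of -1.41 ± 0.12 and -1.05 ± 0.12). Mast4 (chr13:102732486-103334497, minus strand), a microtubule-associated kinase, had 3024, 2427 and 2222 in PE knockdown against 4624, 4015 and 3951 in PE control libraries. Its PBS values overlapped, at 1692, 2989 and 2203 with the knockdown and 2817, 2892 and 3115 in controls, and the changes were -0.72 ± 0.15 and -0.40 ± 0.15. Dock1 and Dock4, exchange factors for Rac, were -0.93 and -0.92 in PE.

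Of the 8 genes of membrane traffic, matrix and RNA binding, all were lower without overlap in PE and 6 in PBS, with medians of -1.14 and -0.80. Exoc6b (chr6:84618487-85069513, minus strand), a subunit of the exocyst that tethers vesicles at the plasma membrane, had 255, 255 and 256 in PE knockdown and 852, 859.7 and 999 in PE control libraries. In PBS it had 290.1, 266 and 335 with the knockdown and 931, 908 and 1002 in controls. The groups were tight and well apart, with log2 changes of -1.82 ± 0.11 and -1.68 ± 0.11. Tbc1d5 (chr17:50733124-51179352, minus strand), a Rab GTPase-activating protein that works with retromer, had 353, 356 and 296 in PE knockdown libraries against 795, 741 and 849 in PE controls. It had 364, 515 and 459 in PBS knockdown and 854, 960.2 and 829 in PBS control libraries (log2 changes of -1.25 ± 0.13 and -0.99 ± 0.13). At the other end, Fndc3b (chr3:27416162-27711307, minus strand), a membrane protein with fibronectin type III domains, had 3132, 2919.6 and 3012 in PE knockdown and 3976, 3844 and 3601 in PE control libraries. Its PBS values overlapped, at 2628, 3162 and 2880.4 with the knockdown and 3215, 2870.3 and 3502 in controls, and the changes were -0.33 ± 0.10 and -0.14 ± 0.10. Fbxl7 (an F-box protein), Thsd4 (a microfibril-binding matrix protein), Exoc4 (another exocyst subunit), Rbms3 (an RNA-binding protein) and Vps13b (a lipid-transfer protein) lay between -1.21 (Fbxl7) and -0.62 (Vps13b) in PE.

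The 5 fragile-site genes and enzymes were low in these cells, 3 of them under a mean of 50, and only 2 were lower without overlap in PE and 3 in PBS (medians -0.60 and -0.65). Immp2l (chr12:41024090-41955588, plus strand), a subunit of a mitochondrial inner membrane peptidase, had 23.5, 10.96 and 20.8 in PE knockdown and 32.3, 32.9 and 35.8 in PE control libraries. Its PBS values were 18.1, 14.5 and 11.9 with the knockdown and 31.3, 42.9 and 33.0 in controls, with log2 changes of -0.90 ± 0.29 and -1.22 ± 0.29. With 11 to 42 reads per library, its fold is known only roughly. Wwox (chr8:114439655-115352708, plus strand), an oxidoreductase at a common fragile site, had 127, 112 and 99.3 in PE knockdown and 222, 179.6 and 198 in PE control libraries. In PBS it had 121, 119 and 144 with the knockdown and 203, 223 and 177 in controls (log2 changes of -0.82 ± 0.15 and -0.65 ± 0.15). Macrod2 (chr2:140395309-142392966, plus strand), which removes ADP-ribose from proteins, spans 1998 kb and yet overlapped under both treatments. It had 85.6, 79.7 and 76.4 in PE knockdown and 88.3, 75.4 and 87.9 in PE control libraries, and 112, 77.7 and 95.3 in PBS knockdown against 89.2, 142 and 90.6 in PBS control libraries. Its changes were -0.05 ± 0.19 and -0.15 ± 0.19, and the PBS value was 0.07 without PBS control replicate 2. Fhit, a dinucleoside hydrolase at another fragile site, was -0.49 ± 0.33 in PE.

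The change was more negative in PE than in PBS for 41 of the 51 genes, and the median difference was -0.29. The difference was below 0 for 50.5% of all genes tested and for 81.1% of the other genes of 200 kb or more. No listed gene was called for it (limma), and over all genes 0 were called lower and 12 higher. The knockdown comparisons in PE and in PBS share no library, but both were used to choose the list, so the median is a description. Differences ran from -1.04 ± 0.49 (Bnc2, 10 to 44 reads per library) to 0.72. Zfpm2 had the difference -0.60 ± 0.13, Tenm3 -0.71 ± 0.19 and Lpp -0.45 ± 0.14, while Magi2 (0.37 ± 0.23) and Ralgapa2 (0.33 ± 0.18) were further below control in PBS.

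Phenylephrine averaged over both GapmeRs is a comparison that the list was not chosen on, since the average weights knockdown and control libraries alike. It is not the change in control cells alone, and the values within each GapmeR are given further below. Of the 51 genes, 24 fell with PE (limma, adjusted over all genes), where 19.0% of all genes did, and 7 rose, where 18.8% did. The median log2 change was -0.23, against 0.00 over all genes tested. Of the 566 other genes of 200 kb or more, 242 fell and 106 rose, with a median of -0.16. Of 11651 protein-coding genes with a mean of 50 or more, 3056 fell and 3112 rose. With values rescaled to the same total, the median of protein-coding genes moved to -0.15, and 36 listed genes were called lower and 5 higher around a median of -0.38, where 28.3% and 12.2% of all genes were. Without the 3 libraries named above, 30 were called lower and 9 higher, where 21.2% and 20.8% of all genes were.

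The 3 genes with the largest falls with PE were Tenm4, Naaladl2 and Tenm3, and Tenm3 and Tenm4 are both teneurins. Tenm4 (chr7:96171246-96911093, plus strand) had 20.3, 20.9 and 23.8 in PE knockdown and 48.5, 38.3 and 33.6 in PE control libraries, against 102, 177 and 138 in PBS knockdown and 249, 259.7 and 242 in PBS control libraries. All 6 PE libraries were below all 6 PBS libraries, and the log2 change was -2.61 ± 0.14 (adjusted p = 3.31e-11). Tenm3, whose values stand above, fell by 1.32 ± 0.09 on the log2 scale (adjusted p = 1.13e-09), though its PE control values overlapped its PBS knockdown values. Naaladl2 (chr3:23798102-25144261, minus strand), a relative of glutamate carboxypeptidase, had 11.8, 5.98 and 7.94 in PE knockdown and 6.46, 18.1 and 18.5 in PE control libraries, and 14.5, 13.6 and 39.4 in PBS knockdown against 50.3, 69.5 and 37.8 in PBS control libraries. It fell by 1.53 ± 0.30 (adjusted p = 0.000432) from few reads, 6 to 68 per library. Nckap5 fell by 1.25 ± 0.11, Fhit by 0.99 ± 0.23, Sox5 by 0.80 ± 0.13, Sox6 by 0.80 ± 0.08 and Nfia by 0.77 ± 0.11.

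The 7 genes that rose with PE were Foxp1, Lpp, Frmd4a, Dmd, Dock4, Mast4 and Magi1, 4 of them from the class of cytoskeleton and scaffolds. Foxp1 (chr6:98925338-99522721, minus strand) had 2027, 1579 and 1442 in PE knockdown and 2019, 1723 and 1823 in PE control libraries, against 938, 1262 and 1082 in PBS knockdown and 1103, 1373 and 1133 in PBS control libraries. Its PE libraries were all above its PBS libraries, with a log2 change of 0.62 ± 0.09 (adjusted p = 2.43e-05). Lpp (chr16:24393507-24992578, plus strand) had 3695, 3102 and 3404 in PE knockdown and 6717, 7329 and 7661 in PE control libraries, and 2380.0, 2717 and 2835 in PBS knockdown against 4361, 3847 and 4125 in PBS control libraries. It rose by 0.59 ± 0.07 (adjusted p = 1.75e-06), yet PE knockdown libraries were no higher than PBS control libraries. Frmd4a (chr2:4017717-4614043, plus strand) had 2487, 1993 and 1859 in PE knockdown and 3122, 2838 and 2956 in PE control libraries, and 1478, 1966 and 1608 in PBS knockdown against 1792, 2084 and 1938 in PBS control libraries (log2 change 0.47 ± 0.08, adjusted p = 0.000155). Dmd rose by 0.43 ± 0.07, Dock4 by 0.39 ± 0.08, Mast4 by 0.35 ± 0.11 and Magi1 by 0.29 ± 0.07, and the last 2 were not called with values rescaled to the same total. In control cells the changes of Dmd, Dock4, Mast4 and Magi1 were 0.60, 0.52, 0.51 and 0.53. In knockdown cells they were 0.27, 0.26, 0.18 and 0.05 in the same order.

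By role, 8 nuclear regulators fell and 1 rose, 5 surface receptors fell and 0 rose, 3 cytoskeletal and scaffold genes fell and 4 rose, 2 GTPase and kinase genes fell and 2 rose, 4 traffic, matrix and RNA-binding genes fell and 0 rose, and 2 fragile-site genes and enzymes fell and 0 rose. The nuclear regulators that fell were Sox5, Sox6, Nfia, Rora, Zfpm2, Maml3, Ebf1 and Nfib. The other 20 genes did not pass the test. Nfib was not called without PE knockdown replicate 2 or 3, PE control replicate 2, PBS knockdown replicate 3 or PBS control replicate 2. Tbc1d5 was not called without PE knockdown replicate 3, PE control replicate 2 or PBS control replicate 2. Fibroblast markers also moved with PE: 7 of 8 fell, with a median of -1.08, and 4 of 6 smooth muscle and pericyte markers fell and 2 rose, with a median of -1.15. Of the endothelial markers 6 of 7 rose, with a median of 1.41, and of the leukocyte markers 5 of 7, with a median of 0.55, where 18.8% of all genes rose and 19.0% fell. Their part in the values of the long genes was not tested.

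**Figure D3:**
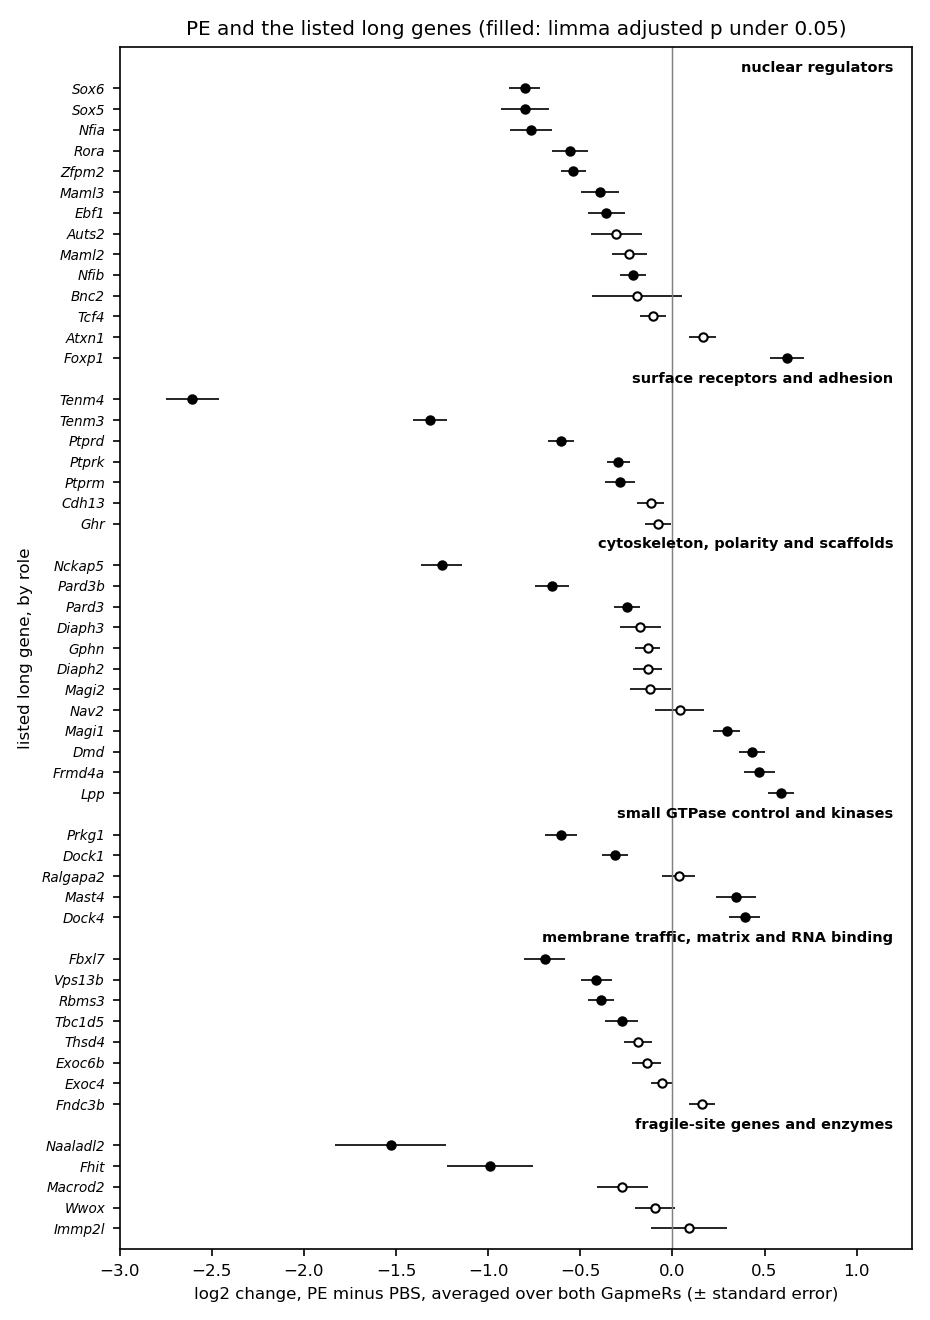
Log2 change with PE, averaged over both GapmeRs (PE minus PBS, all 12 libraries), of each listed long gene by role; bars are limma standard errors and filled points have an adjusted p under 0.05. Of the 31 filled points, 24 lie left of 0, led by Tenm4 at -2.61, and 7 lie right of it, led by Foxp1 at 0.62.

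Within each GapmeR the median change with PE was -0.38 in knockdown cells and -0.11 in control cells. In knockdown cells 28 listed genes were called lower and 3 higher, and in control cells 13 lower and 8 higher (limma). Of all 21799 genes tested, 3049 were called lower and 2918 higher in knockdown cells, and 2801 and 2742 in control cells. Each shares libraries with a knockdown comparison, so these values are given side by side only.

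The listed genes sit at the end of a grading over all protein-coding genes whose mean value reached 50. With the knockdown in PE, the median log2 change was 0.05 for 2576 genes under 10 kb, 0.06 for 3867 genes of 10 to 30 kb, -0.04 for 3522 genes of 30 to 100 kb, -0.22 for 1073 genes of 100 to 200 kb, -0.47 for 449 genes of 200 to 400 kb, -0.81 for 132 genes of 400 to 800 kb and -0.92 for 32 genes of 800 kb or more. In PBS the medians in the same order were 0.11, 0.06, -0.04, -0.12, -0.27, -0.46 and -0.64. With PE averaged over both GapmeRs they were 0.05, 0.03, -0.01, -0.11, -0.15, -0.28 and -0.33. Without the listed genes, the classes of 400 to 800 kb and of 800 kb or more, 104 and 20 genes, had medians of -0.79 and -0.92 in PE and -0.46 and -0.62 in PBS. The 566 other genes of 200 kb or more had medians of -0.52 in PE, with 533 below 0, and of -0.30 in PBS, with 507 below 0.

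The order by span was also seen within strata of transcript length. Among genes with the shortest transcripts (longest annotated transcript up to 2788 bases), the knockdown medians in PE were 0.05 under 10 kb and -0.52 at 200 to 400 kb. Among those with the longest (over 4445 bases) they were 0.05 under 10 kb, -0.46 at 200 to 400 kb and -0.96 at 800 kb or more. Transcript GC content was also related to the change in PBS, with a Spearman rho of 0.42 over 11651 protein-coding genes, and of -0.01 in PE. Among genes of the lowest GC content (up to 46.56%), the medians under 10 kb and at 200 to 400 kb were 0.10 and -0.50 in PE and -0.03 and -0.38 in PBS. Among those of the highest GC content (over 52.92%) they were 0.03 and -0.52 in PE and 0.16 and -0.13 in PBS. Within the 51 genes the order by span was not seen: Spearman's rho between span and the change with the knockdown was 0.10 in PE and -0.14 in PBS over 51 genes, against -0.36 and -0.38 over 11651 protein-coding genes. Changes of the listed genes with the knockdown correlated with their mean level at 0.27 in PE and 0.42 in PBS, and changes with PE averaged over both GapmeRs at 0.50. Among protein-coding genes of the lowest mean values (up to 371.4), medians under 10 kb and at 200 to 400 kb were 0.09 and -0.54 with the knockdown in PE. With PE averaged over both GapmeRs they were -0.04 and -0.25. Among those of the highest mean values (over 1156) they were 0.02 and -0.43 with the knockdown in PE and 0.20 and -0.03 with PE averaged. These are descriptions over genes that share the same libraries.

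The shortest genes of the list were Ghr at 266 kb, Ralgapa2 at 272 kb and Fndc3b at 295 kb, with changes of -0.51, -2.34 and -0.33 in PE. Just above 200 kb, Pcbp3 was -0.92, Umad1 -0.79 and 4930402H24Rik -0.13, and just below it Atp9b was -0.30, Clec16a -0.60 and Mical3 -0.61.

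**Figure D4:**
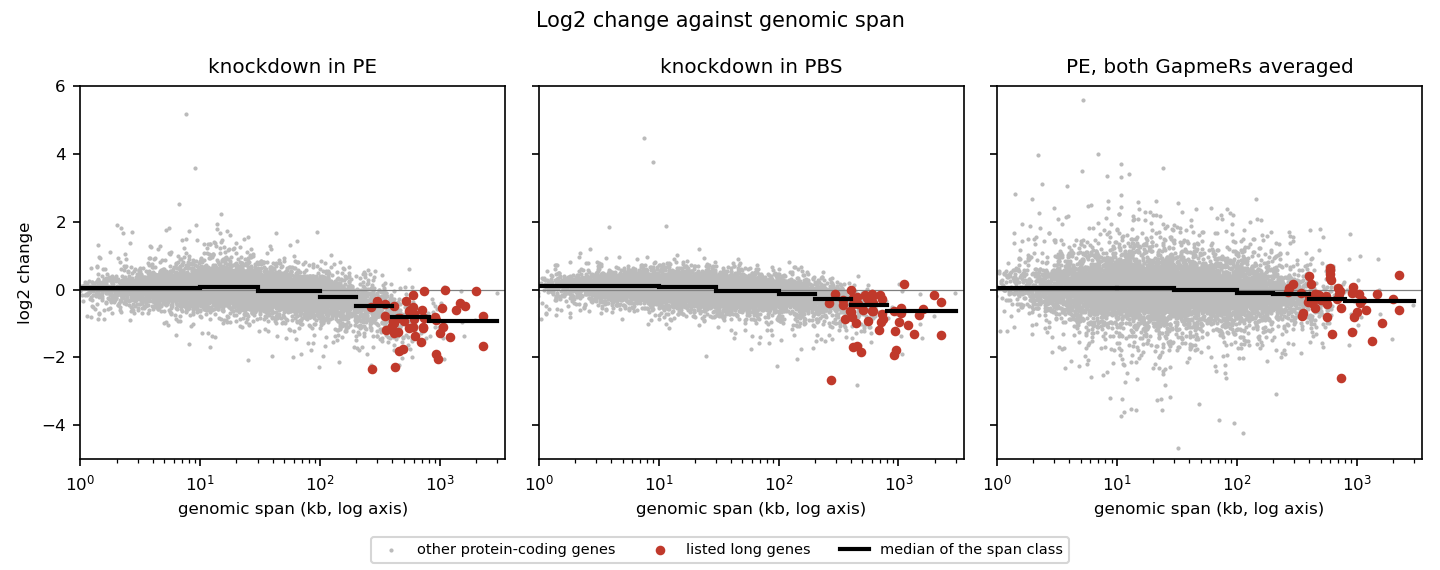
Log2 change against genomic span (log axis) of protein-coding genes whose mean value reached 50, for the knockdown in PE, the knockdown in PBS and PE averaged over both GapmeRs. Grey points are other genes, red points the 51 listed genes, and black bars the medians of 7 span classes, which run from 0.05 to -0.92, from 0.11 to -0.64 and from 0.05 to -0.33.

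Short and long relatives of the listed genes were looked at beside them. The listed genes were chosen after long genes were seen to be lower, so their contrast with short relatives is a description. Whether relatives are alike in function was not tested. Of 60 relatives of the listed genes, 59 were tested. The 30 relatives under 100 kb had a median change of -0.02 with the knockdown in PE, with 0 called lower (limma; 7.14% of all genes) and 2 higher (4.57% of all genes), Trip6 and Atxn1l. Neither call was kept throughout: with 1 library left out, 0 to 4 of the 30 were called higher and 0 to 2 lower (4 and 2 without PBS knockdown replicate 2), and none was called higher without PE knockdown replicate 2 or 3 or PE control replicate 2 or 3. The 16 relatives of 100 to 200 kb had a median of -0.39 with 9 called lower, and the 13 of 200 kb or more one of -0.89 with 11 called lower. The last class belongs to the long genes seen to be lower before, so its count is a description, and it was 7 to 12 with 1 library left out, with 7 without PE knockdown replicate 2 or PE control replicate 2. In PBS the medians were 0.06, -0.19 and -0.35, with 0, 1 and 5 called lower, where 3.21% of all genes were. The last of these counts was 2 to 5 with 1 library left out, with 3 without PE control replicate 2, PBS knockdown replicate 1 or PBS control replicate 1, and 2 without PBS control replicate 2 or 3.

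Single families are given as examples, picked after their values were seen. Maml1, at 36.7 kb, was 0.07 ± 0.11 with the knockdown in PE, against -1.29 for Maml2 and -2.28 for Maml3. Diaph1, at 91.9 kb, was -0.12 ± 0.11, against -1.12 for Diaph2 and -1.75 for Diaph3. Sox13, another SoxD gene, at 42.1 kb, was 0.16 ± 0.19, and Exoc6, at 134 kb, was 0.26 ± 0.10 beside -1.82 for Exoc6b, the highest value among the 16 relatives of 100 to 200 kb, of which 13 were below 0 (Rorb -1.57 ± 0.45, Nav1 -0.72 ± 0.13). Among long relatives, Magi3 (207 kb) was -1.25 ± 0.09, the N-cadherin gene Cdh2 (220.4 kb), which joins cardiomyocytes at the intercalated disc, -1.11 ± 0.12, Foxp2 (541 kb) -1.40 ± 0.19 and the dystrophin relative Utrn (487 kb) -0.80 ± 0.10. Not all long relatives were so low, since Ralgapa1 (218 kb) was -0.37 ± 0.10 beside the much lower Ralgapa2, and Tcf12 (269 kb) -0.26 ± 0.09.

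**Figure D5:**
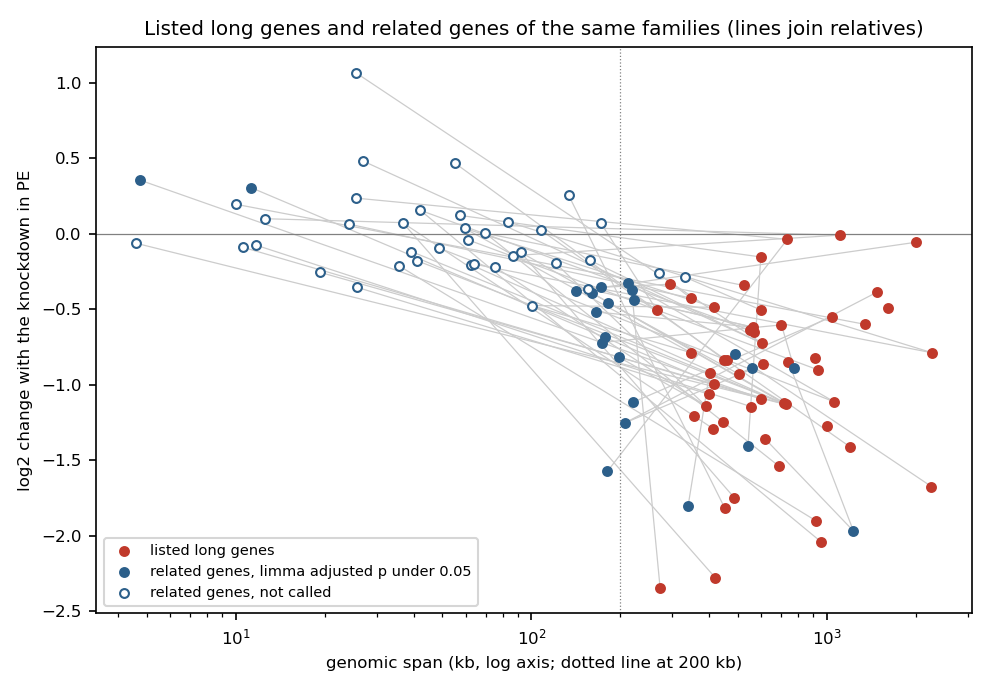
Log2 change with the knockdown in PE against genomic span (log axis) for the 51 listed long genes (red) and 59 related genes (blue, filled where the limma adjusted p is under 0.05); grey lines join relatives, and the dotted line marks 200 kb. Relatives under 100 kb have a median of -0.02 and those of 200 kb or more of -0.89.

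Genes of the elongation machinery were looked at because they act on long transcription units. The list of 44 holds carboxy-terminal domain kinases and their cyclins, the NELF, DSIF, PAF, FACT and super elongation complexes, U1 components and topoisomerases. With the knockdown in PE its median was 0.05, and 2 genes rose and 3 fell (limma), where 4.57% and 7.14% of all genes did. Tcea1 (elongation factor TFIIS) rose by 0.49 ± 0.14 (adjusted p = 0.026) and Setd2 (a histone methyltransferase that travels with the polymerase) by 0.39 ± 0.10 (adjusted p = 0.0155). Both calls were lost without PE knockdown replicate 1 or PE control replicate 2, and that of Tcea1 also without PE knockdown replicate 2 or 3 or PE control replicate 1. Leaving out 1 library gave 0 to 3 genes higher and 3 to 5 lower, with 5 lower without PE knockdown replicate 1 or PBS knockdown replicate 2. Cdk13 (a carboxy-terminal domain kinase) was -0.41 ± 0.09 (adjusted p = 0.00335), Top2a -0.55 ± 0.12 (adjusted p = 0.00296) and Mllt3 -0.64 ± 0.10 (adjusted p = 0.000265). Mllt3, a subunit of the super elongation complex, itself spans 263 kb and so belongs to the long genes seen to be lower before. In PBS, 0 rose, where 1.36% of all genes did, and 2 fell, Top2a and Mllt3, where 3.21% did; Mllt3 was not called without PBS control replicate 1. With PE averaged over both GapmeRs, 17 rose and 2 fell with a median of 0.17, where 18.8% of all genes rose and 19.0% fell. The largest rises were those of Ell2 (0.90 ± 0.09) and Leo1 (0.70 ± 0.09). With 1 library left out, 13 to 23 rose and 0 to 4 fell, with none lower without PE control replicate 3 or PBS control replicate 1 or 3, and 4 lower without PBS knockdown replicate 2.

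Genes that lie inside the bodies of the listed genes give values from the same stretches of DNA. Found inside 25 hosts were 37 tested genes, most of them very low, with a median value of 2.08. Their median change with the knockdown in PE was -0.16, with 0 called lower and 1 higher, where 7.14% and 4.57% of all genes were. Flrt3, on the opposite strand within Macrod2, rose by 0.66 ± 0.14 (adjusted p = 0.00244). Cstf2t, within Prkg1, was 0.23 ± 0.09 (adjusted p = 0.128) while its host was -1.41, and Lrrn3, within Immp2l, was -0.47 ± 0.21 (adjusted p = 0.172) while its host was -0.90. Exon bases are shared with another tested gene by 13 of the 51 genes, and in 2 the partner is the higher gene, Gmpr for Atxn1 and Cox6c for Vps13b. The sources used here do not say whether counting used strand. Overlapping genes on opposite strands may therefore share reads. Only Fhit shares more than 5% of its exon bases, but the share of bases does not bound the share of reads. Cox6c (mean 5415) shares 250 bases with Vps13b (731), and Gmpr (1409) shares 375 with Atxn1 (690). How many reads came from shared bases was not tested.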

How the data were processed

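RNA of 12 libraries of neonatal mouse cardiomyocytes, 3 per group, was sequenced as polyadenylated RNA, per the labels. The authors deposited a signal per gene, which the values show to be reads divided by 1 size factor per library; STAR, SAMtools, featureCounts and GRCm38.p6 are named in the submitters' processing notes, while versions, the gene annotation and strand handling are not given in the sources used here. Multiplying by the size factor gave whole reads for 100% of values (tolerance 0.001). Count tests on these reads served as alternatives only; in 2 libraries, PE knockdown replicates 2 and 3, the step is too near 1 for recovery to be told from rounding.

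Deposited signal was analysed as log2(value + 1) for 21799 of 55416 genes with a mean of at least 1, with limma 3.58.1 (R 4.3.3, trended variance, 4 group means, Benjamini-Hochberg adjustment over all genes, threshold 0.05). Log2 changes understate those of low genes. The design named limma on log2(value + 1), or edgeR if raw counts had been given, and the unit required limma. Gene spans, exons and positions came from GENCODE M21 (GRCm38), to which 52135 identifiers matched without their version and 35 with it, so gene models may differ from those counted. Library values are given for the 2 lowest genes and the highest gene of each role with the knockdown in PE, and for the 3 lowest and 3 highest called with PE; up to 4 called elongation genes were to be named. The fifth elongation gene, long relatives and genes inside hosts were picked after their values were seen. The listed genes and the gene lists were chosen with earlier results of these data known. Depth was 21325485 to 22139681 reads per library, and a low gene such as Trp53cor1 rests on 8 to 69 reads. Alternatives covered the pseudocount, the filter, edgeR 4.0.16, DESeq2 1.42.0, scaling to the same total, a GC trend, a replicate block and leaving out libraries. The fit was tested on simulated data. Replicates of a group differed beyond sampling noise (chi-square per degree of freedom 2.31 to 47.9).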

Additional observations from a re-analysis of the deposited data

How the results depend on the processing

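The median change of the listed genes with the knockdown stayed below 0 under every alternative run, in PE and in PBS. The choice of the list from these same libraries fixed this direction, so it is a description. The median ran from -0.93 to -0.82 in PE and from -0.65 to -0.54 in PBS when 1 library was left out, with -0.54 without PBS knockdown replicate 1. The median change with PE in control cells ran from -0.15 to -0.095 in the same fits. With PE averaged over both GapmeRs, count tests on recovered reads called 25 listed genes lower and 7 higher with both edgeR (median-of-ratios scaling) and DESeq2, where 19.2% and 18.4% of all genes were called with edgeR and 18.3% and 17.9% with DESeq2. Same-numbered libraries had deviations correlated between -0.435 and 0.409, so the numbers were not taken as pairs; with the replicate block, 24 listed genes were called lower with PE and 7 higher, where 18.5% and 18.1% of all genes were. Over all genes, edgeR called 4183 lower and 4019 higher with PE, and scaling to the same total 6165 and 2656.

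Scaling to the same total gave medians of -0.27 for PE in control cells, -0.52 for PE in knockdown cells and -0.38 for PE averaged over both, and of -0.43 in PE and -0.23 in PBS for the knockdown in other genes of 200 kb or more. With 100 kb as the limit for those other genes the medians were -0.32 and -0.18, and with 400 kb -0.79 and -0.52; these sets hold other genes by construction. Why scaling moved the values was not tested. Depth limits the genes with few reads, such as Fhit and Naaladl2.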
